A study of Homo sapiens with 4 samples.

Results

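The cell cycle engine and the machinery that licenses DNA replication were described on 4 exon arrays. The members were all genes whose sole symbol in the platform annotation names an A, B, D or E cyclin, a cyclin-dependent kinase (CDK), a numbered CDC gene, an E2F factor, an MCM protein or an origin recognition complex (ORC) subunit. The rule used names and no measured value, though it was chosen with earlier results of these data known. It found 66 of the 14232 genes on the arrays. A further 11 transcript clusters annotated to several genes hold such a symbol and were not used.

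The arrays held total RNA of cells labelled HepG2, a hepatocellular carcinoma line, and of K562, a chronic myeloid leukaemia line. Cells of each line carried a stably transfected plasmid with an siRNA against ADAR1 (ADARkd) or a scrambled siRNA (SCR), the control. The groups were thus HepG2 ADARkd, HepG2 SCR, K562 ADARkd and K562 SCR, with 1 array each and no replicate. Several siRNAs had been tried, and the strongest was kept, so the knockdown rests on 1 siRNA sequence. The study asked how ADAR, an enzyme that edits adenosine to inosine within RNA duplexes, acts on alternative splicing, and its gene-level values are used here. No clone number and no stage of the cell cycle is given for any culture in the sources used here.

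Cyclins bind and activate CDKs. Cyclin D with its kinases phosphorylates the retinoblastoma protein, which frees E2F factors to switch on genes of S phase, cyclin E among them. In G1, the origin recognition complex and CDC6 load the MCM helicase onto DNA, which licenses an origin. CDC7, CDC45 and the GINS complex then turn the helicase on. Cyclin A and B with CDK1 drive mitosis, which the anaphase-promoting complex ends by tagging cyclin B for destruction.

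Values are log2 intensities, 1 per array, and a level of 1 gene is not set against that of another because their probes differ. A gene counts as kept in a line if its mean over the 2 arrays of that line reaches the median of all genes, 5.31 for HepG2 and 5.28 for K562. ADAR was 7.27 in HepG2 ADARkd and 8.96 in HepG2 SCR, and 6.78 in K562 ADARkd and 7.99 in K562 SCR. The labelled lines were checked against marker genes. Of 18 hepatocyte markers 2 were kept on the HepG2 arrays, and ALB, which encodes albumin, was at 2.97 in ADARkd and 3.04 in SCR, so these arrays are called labelled HepG2. Of 11 erythroid markers 10 were kept in K562.

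On the arrays labelled HepG2 the members lay higher in ADARkd than genes at large, and the cyclins CCND1 and CCNE1, which act in G1, differed most. Origin recognition genes, the loading and firing factors CDC6, CDC7 and CDC45, and the E2F family shared this direction, while the MCM helicase genes lay on both sides of 0. Of 57 kept members 44 were higher in ADARkd, where 60.9% of all 7116 kept genes were, and 13 were lower, where 39.1% were. Their median difference, ADARkd minus SCR, was 0.30 on the log2 scale, beside 0.11 for all kept genes. At least 1.5-fold higher were 13 members (22.8%), beside 12.4% of all kept genes, and at least 1.5-fold lower were 2, beside 5.73%. At least 2-fold higher were 2 members, CCND1 and CCNE1, beside 2.46%, and 0 were at least 2-fold lower, beside 1.57%.

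**Figure D1:**
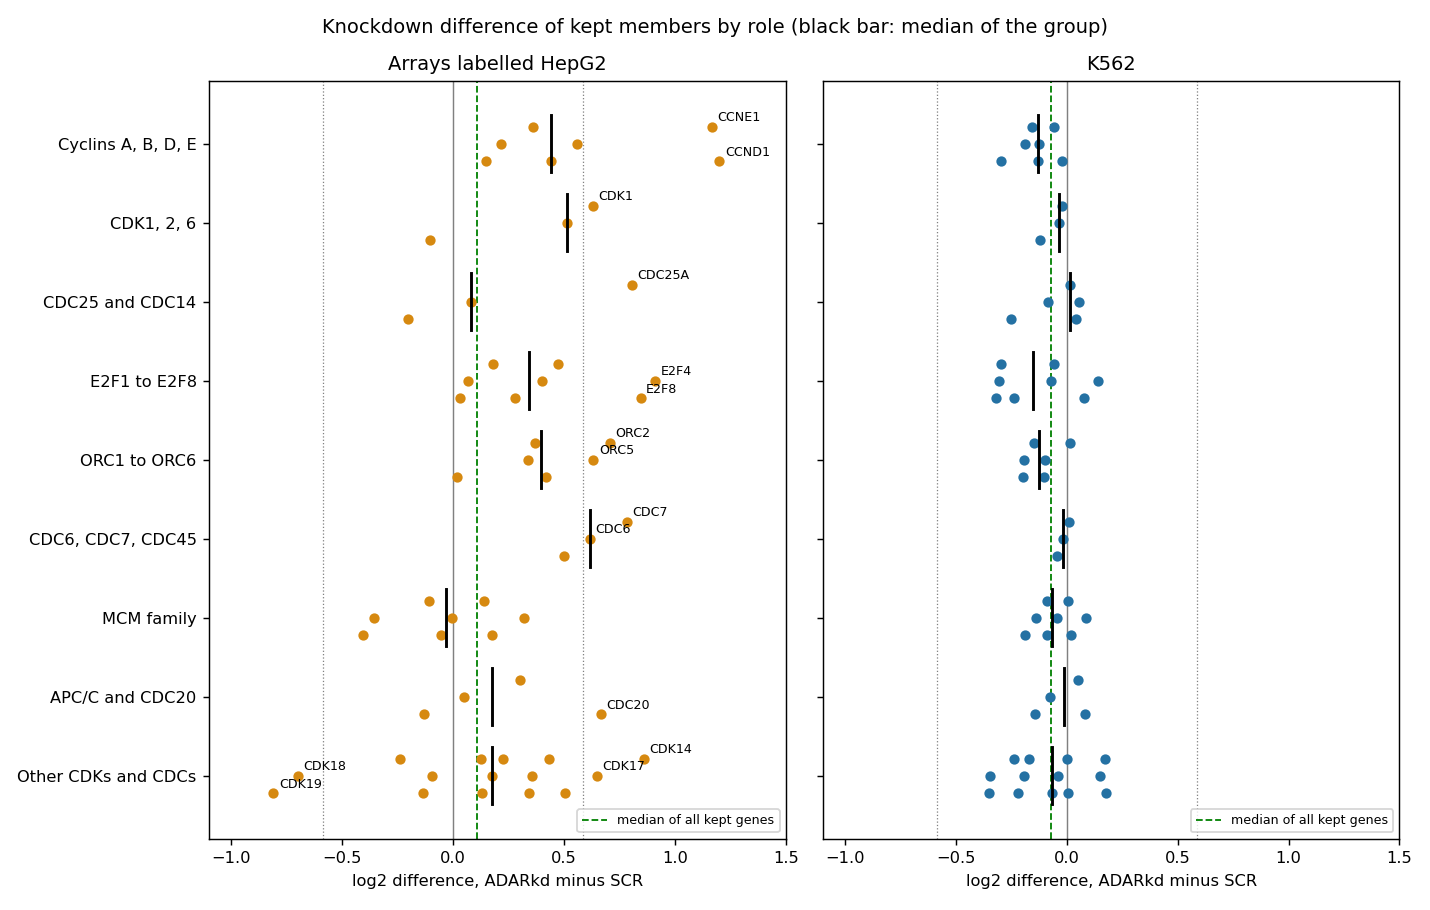
Each point is a kept member placed by its log2 difference, ADARkd minus SCR, on the arrays labelled HepG2 (left) and in K562 (right), with 1 row per role. Black bars are group medians, the green dashed line is the median of all kept genes (0.11 and -0.07), and dotted lines mark 1.5-fold. CCND1 (1.20) and CCNE1 (1.17) lie farthest right, and no K562 point reaches a dotted line.

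These differences have no replicate check, and they depend in part on the scale of the 2 arrays. Quantile normalization brought the median of all kept genes to 0.01 and that of the members to 0.18, and loess to 0.01 and 0.16. Under either, 7 members (12.3%) were at least 1.5-fold higher, beside 8.46% of all kept genes after quantile normalization and 8.92% after loess. The 7 were CCND1, CCNE1, CDC25A, CDC7, CDK14, E2F4 and E2F8.

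Cyclins come first. CCND1, cyclin D1, which links growth signals to the G1 kinases, was 8.36 in ADARkd and 7.16 in SCR on the arrays labelled HepG2, a difference of 1.20 or 2.30-fold. In K562 it was 4.95 in ADARkd and 5.09 in SCR, both under the filter level. CCNE1, cyclin E1, the partner of CDK2 at the entry to S phase, was 7.36 in ADARkd and 6.19 in SCR on the arrays labelled HepG2, a difference of 1.17 or 2.25-fold. It stood at 8.27 in ADARkd and 8.32 in SCR in K562, so the HepG2 arms are apart and those of K562 are close. CCNE2, cyclin E2, was 7.63 in ADARkd and 7.07 in SCR (0.56) on the arrays labelled HepG2, and 6.35 in ADARkd and 6.65 in SCR (-0.30) in K562.

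CCND3, cyclin D3, was 7.01 in ADARkd and 6.57 in SCR on the arrays labelled HepG2, and 7.99 in ADARkd and 8.12 in SCR in K562. CCND2, cyclin D2, was at 3.01 in ADARkd and 2.83 in SCR on the arrays labelled HepG2, far under the filter level, and at 7.34 in ADARkd and 7.49 in SCR in K562. The mitotic cyclins differed less between the arms labelled HepG2 than CCND1 and CCNE1. CCNA2, cyclin A2, which acts in S phase and G2, differed by 0.36 on the arrays labelled HepG2 and -0.12 in K562. For the B cyclins of mitosis, CCNB1 differed by 0.15 and -0.19 in the same order, and CCNB2 by 0.22 and -0.02. CCNA1 and CCNB3, known for expression in the germ line, were under the filter in both lines. All 7 kept cyclins were higher in ADARkd on the arrays labelled HepG2 (median 0.44), with CCNB1 turning to -0.01 after loess, and the 7 kept in K562 were lower there (median -0.13), of which 2 turned higher after quantile normalization and 2 after loess.

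Among the kinases that pair with these cyclins, CDK1, the kinase of mitosis, was 8.72 in ADARkd and 8.09 in SCR on the arrays labelled HepG2, a difference of 0.63 or 1.55-fold. It was 8.10 in ADARkd and 8.14 in SCR in K562. CDK6, a partner of the D cyclins, was 8.27 in ADARkd and 7.75 in SCR on the arrays labelled HepG2 (0.51), and 7.90 in ADARkd and 8.02 in SCR in K562. CDK2, the partner of cyclins E and A, was 9.16 in ADARkd and 9.26 in SCR on the arrays labelled HepG2. That difference of -0.11 was -0.24 after quantile normalization and -0.27 after loess. In K562, CDK2 was near equal between arms, at 8.68 in ADARkd and 8.70 in SCR. CDK3 was under the filter in both, and CDK4 was not among the genes that the rule found.

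The CDC25 phosphatases remove the inhibitory phosphates from CDKs, and they did not share a direction. CDC25A, which acts from G1 on, was 7.28 in ADARkd and 6.47 in SCR on the arrays labelled HepG2, a difference of 0.81 or 1.75-fold. K562 had it at 7.72 in ADARkd and 7.81 in SCR. CDC25B differed by 0.08 on the arrays labelled HepG2 and 0.02 in K562, and CDC25C by -0.20 and 0.04. CDC25B turned to -0.07 after quantile normalization and -0.06 after loess. CDC14A and CDC14B, phosphatases whose yeast relative drives exit from mitosis, were kept in K562 and under the filter on the arrays labelled HepG2. There, CDC14A differed by 0.39 and CDC14B by 0.16, against -0.25 and 0.06 in K562.

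**Figure D2:**
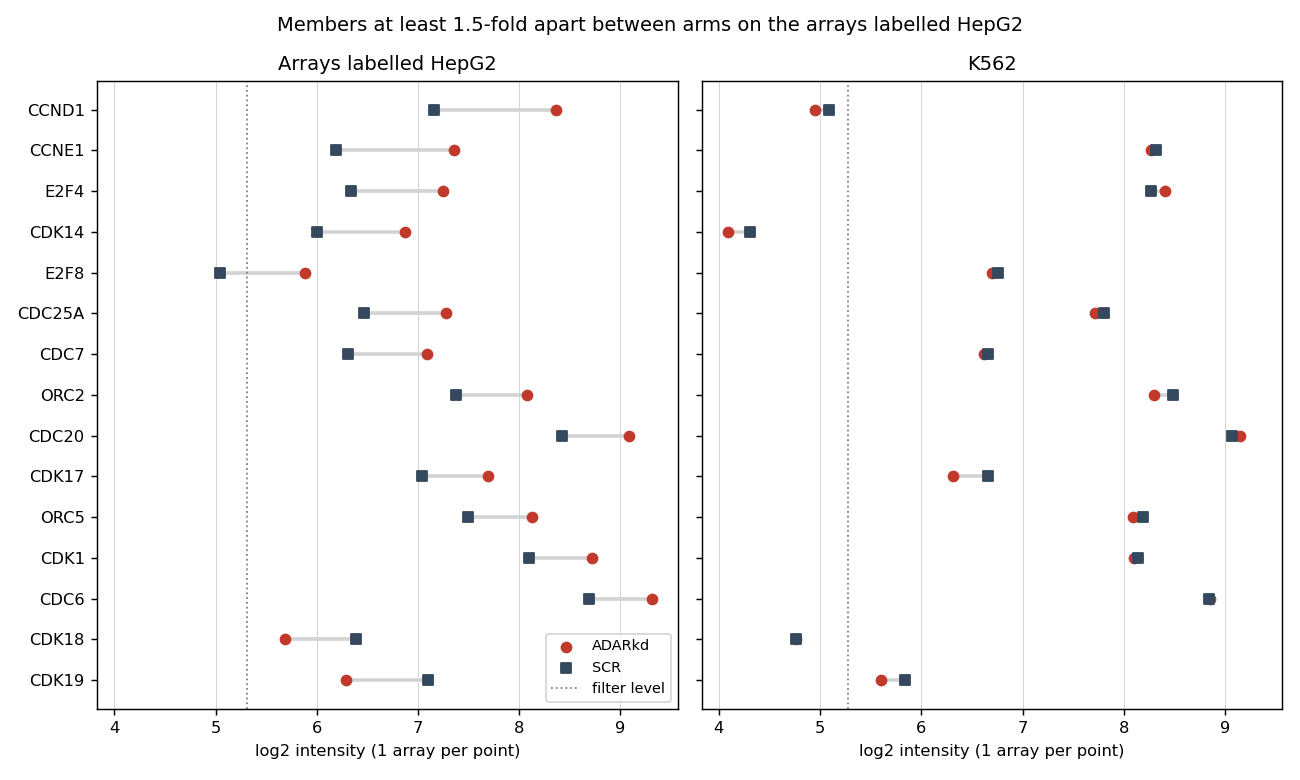
The log2 intensity of the 15 members at least 1.5-fold apart between arms on the arrays labelled HepG2 is drawn for those arrays (left) and for K562 (right), with red circles for ADARkd, dark squares for SCR and a dotted line at the filter level. The circle lies right of the square in 13 rows of the left panel and left of it for CDK18 and CDK19, while the K562 pairs lie close together.

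The 8 E2F factors, of which E2F1 to E2F3 are known as activators of transcription and most of the others as repressors, were all kept in both lines. All 8 were higher in ADARkd on the arrays labelled HepG2 (median 0.34), from 0.03 for E2F3 to 0.91 for E2F4. E2F1 and E2F3 turned negative after quantile normalization (-0.02 and -0.10) and loess (-0.01 and -0.10). E2F4, a repressor in resting cells, was 7.25 in ADARkd and 6.34 in SCR on the arrays labelled HepG2, or 1.88-fold higher. Its K562 values were 8.41 in ADARkd and 8.27 in SCR. E2F8, an atypical repressor that binds DNA without a DP partner, was 5.89 in ADARkd and 5.04 in SCR on the arrays labelled HepG2 (0.85). Its SCR value was under the filter level, where background can set the value. In K562 it was 6.70 in ADARkd and 6.76 in SCR.

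Among the activators, E2F1 was 6.53 in ADARkd and 6.46 in SCR on the arrays labelled HepG2, and 6.13 in ADARkd and 6.45 in SCR in K562, the lowest K562 difference of the family at -0.32. E2F2 was 6.24 in ADARkd and 5.77 in SCR on the arrays labelled HepG2 (0.47), and 6.21 in ADARkd and 6.51 in SCR in K562 (-0.30). E2F5 (0.40), E2F6 (0.28) and E2F7 (0.18) lay between, with K562 differences of -0.30, 0.08 and -0.24. The family's K562 median was -0.15, with 2 higher and 6 lower in ADARkd, or 4 higher after quantile normalization and 3 after loess.

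Of the origin recognition complex, the ring of proteins that marks where replication can start, all 6 subunits were kept in both lines. All 6 were higher in ADARkd on the arrays labelled HepG2 (median 0.39), though ORC1, at 0.02, turned to -0.09 after quantile normalization and -0.10 after loess. ORC2 was 8.08 in ADARkd and 7.37 in SCR there, a difference of 0.71, and in K562 it was 8.30 in ADARkd and 8.49 in SCR. ORC5 was 8.13 in ADARkd and 7.50 in SCR on the arrays labelled HepG2 (0.63), and 8.09 in ADARkd and 8.19 in SCR in K562. ORC6 (0.42), ORC3 (0.37) and ORC4 (0.34) lay between. In K562 the subunits ran from -0.20 for ORC2 to 0.01 for ORC6 (median -0.13).

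CDC6, which joins ORC to load the helicase, was 9.31 in ADARkd and 8.69 in SCR on the arrays labelled HepG2, a difference of 0.62 or 1.53-fold. In K562 it was 8.85 in ADARkd and 8.84 in SCR. CDC7, the kinase that fires licensed origins, was 7.09 in ADARkd and 6.31 in SCR on the arrays labelled HepG2 (0.78), and 6.62 in ADARkd and 6.66 in SCR in K562. CDC45, part of the active helicase, was 8.30 in ADARkd and 7.80 in SCR on the arrays labelled HepG2 (0.50), and 9.82 in ADARkd and 9.84 in SCR in K562. All 3 were thus higher in ADARkd on the arrays labelled HepG2, and ran from -0.04 to 0.01 in K562, where all 3 were higher after quantile normalization and after loess.

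The measured genes of the helicase itself lay on both sides of 0, and MCM7 was not among the genes that the rule found. MCM3, a subunit of the ring, was 8.86 in ADARkd and 9.22 in SCR on the arrays labelled HepG2 (-0.36), and 9.19 in ADARkd and 9.24 in SCR in K562. MCM6, another subunit, was 9.08 in ADARkd and 8.76 in SCR on the arrays labelled HepG2 (0.32), and 8.85 in ADARkd and 9.04 in SCR in K562. MCM2 (-0.11), MCM5 (-0.05) and MCM4 (-0.01) stood close to 0 on the arrays labelled HepG2. The median of MCM2 to MCM6 there was -0.05. It was -0.16 under quantile normalization and -0.22 under loess, and 1 of the 5 was higher in ADARkd each time.

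Of the other MCM genes, MCM8 (0.17), an MCM relative of DNA repair, and MCM10 (0.14), a replication factor outside the ring, lay near the median of all kept genes on the arrays labelled HepG2. MCM10 turned to -0.02 there after loess. MCM9, the partner of MCM8, was 5.29 in ADARkd, under the filter level, and 5.70 in SCR (-0.41). Its other, dimmer transcript cluster differed by -0.86, at 3.42 in ADARkd and 4.28 in SCR, far under that level. Background can set such values. None of the 8 MCM genes was 1.5-fold apart in either line, and in K562 they ran from -0.19 to 0.09.

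For the anaphase-promoting complex, its activator CDC20 was 9.08 in ADARkd and 8.42 in SCR on the arrays labelled HepG2, a difference of 0.67 or 1.59-fold. Its K562 values were 9.15 in ADARkd and 9.06 in SCR. The subunits CDC23 (0.30), CDC16 (0.05) and CDC27 (-0.13) differed less on the arrays labelled HepG2, and CDC16 turned to -0.08 after quantile normalization and after loess. CDC20B was under the filter in both lines. CDC27 and CDC42 have pseudogenes that could share their probes, which leaves both values uncertain.

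The remaining 17 members are CDKs and CDC genes with roles outside the cycle or less tied to it. CDK14, which pairs with cyclin Y in Wnt signalling, was 6.87 in ADARkd and 6.01 in SCR on the arrays labelled HepG2 (0.86). In K562 it was 4.09 in ADARkd and 4.31 in SCR, under the filter. CDK17, of the PCTAIRE kinases, was 7.69 in ADARkd and 7.04 in SCR on the arrays labelled HepG2 (0.65), and 6.31 in ADARkd and 6.66 in SCR in K562 (-0.35). The 2 lines thus differ in sign for CDK17.

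The 2 members at least 1.5-fold lower in ADARkd on the arrays labelled HepG2 are both here. CDK19, a kinase of the Mediator complex, was 6.29 in ADARkd and 7.10 in SCR (-0.81), and 5.60 in ADARkd and 5.84 in SCR in K562 (-0.24). Its paralog CDK8 was 7.61 in ADARkd and 7.18 in SCR on the arrays labelled HepG2 (0.43), so the pair of Mediator kinases stood on opposite sides, and 8.20 in ADARkd and 8.24 in SCR in K562. CDK18, another PCTAIRE kinase, was 5.69 in ADARkd and 6.39 in SCR on the arrays labelled HepG2 (-0.70), and 4.76 in both arms of K562.

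CDK5, known from neurons, differed by 0.50 on the arrays labelled HepG2 and 0.15 in K562. CDC73, of the PAF1 complex of transcription elongation, was 8.43 in ADARkd and 8.08 in SCR on the arrays labelled HepG2 (0.35), and 7.37 in ADARkd and 7.72 in SCR in K562 (-0.35). CDK16 differed by 0.34 and -0.22 in the same order, and the elongation kinases CDK12 by 0.22 and 0.00 and CDK13 by -0.14 and -0.17. CDC123 (0.18), the small GTPase CDC42 (0.13), the splicing factor CDC40 (0.13), CDK10 (-0.09) and the ubiquitin-conjugating CDC34 (-0.24) completed the genes kept on the arrays labelled HepG2. CDK15 and CDK20 were under the filter in both lines.

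In K562 the members' arms lay close together. Of 57 kept members 40 were lower in ADARkd, beside 66.7% of all kept genes, and 17 were higher, beside 33.3%, so the members' split (70.2% lower) was near that of all genes. After quantile normalization 27 members were lower and 30 higher, and after loess 30 were lower and 27 higher, beside 50.1% and 54.8% of all kept genes lower. Their median was -0.08, beside -0.07 for all kept genes, and 0.00 after quantile normalization. No member was 1.5-fold apart, beside 0.267% of kept genes higher and 0.759% lower. With a smaller bound of 0.32 on the log2 scale, added after the data were seen, 2 members were lower, CDK17 and CDC73, beside 8.38%, and 0 higher, beside 2.09%. The differences ran from -0.35 to 0.18, with an SD across members of 0.13, beside 0.19 across all genes kept in K562. On the arrays labelled HepG2 the SD was 0.41 across members and 0.47 across all kept genes, so both were wider there.

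**Figure D3:**
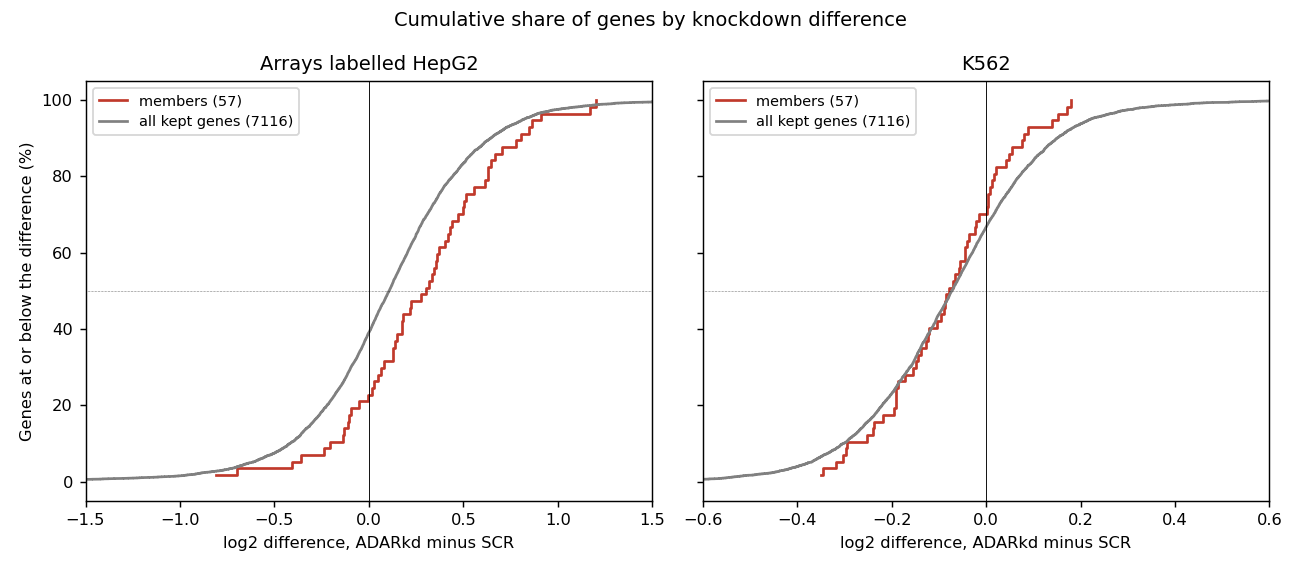
The share of genes at or below each log2 difference, ADARkd minus SCR, is drawn for the 57 kept members (red) and all 7116 kept genes (grey), on the arrays labelled HepG2 (left) and in K562 (right, narrower axis). The members' line lies right of the grey one over most of the left panel and crosses it on the right, with medians of 0.30 and 0.11 on the left and -0.08 and -0.07 on the right.

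The effect of the siRNA shared by both lines was tested with limma on the 6204 genes kept in both, of which 54 are members. No gene passed at an adjusted p of 0.05, members included, and none did without the intensity trend. ADAR, the target itself, did not pass either, at -1.45 ± 0.22 (SE, 2 arrays per arm; limma adjusted p = 0.871), so the absence of calls says little about the members. At an unadjusted p of 0.05, 0 members were higher, beside 0.919%, and 1 was lower, beside 1.97%. That 1 was CDK19, at -0.52 ± 0.21 (SE, 2 arrays per arm; limma adjusted p = 0.9996), lower in ADARkd in both lines. Of the 54, 10 were higher in ADARkd in both lines, beside 20.9%, and 6 lower in both, beside 26.2%. Higher on the arrays labelled HepG2 and lower in K562 were 32 members (59.3%), beside 41.4%, and 6 showed the reverse, beside 11.6%. These counts depend on the array scale. After quantile normalization 18 of the 54 were higher in both lines and 6 lower in both. Another 19 (35.2%) were then higher on the arrays labelled HepG2 and lower in K562, and 11 showed the reverse. After loess the counts were 15, 8, 20 and 11 in the same order. The matching shares of all genes after either are not given here. Across these 54 genes, which are not independent replicates, the differences of the 2 lines correlated at r = -0.07.

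Promoter sequence was set beside these values because E2F factors bind near the start of many members. The windows, from RefSeq (GRCh38.p14), span 250 bases before to 50 after a gene's start, and 57 of the 66 members were matched, with 83 windows, some of which overlap. CCND1, CCND2, CCNE2, CDC73, CDK2, E2F5, E2F8, MCM4 and MCM5 were not matched. The E2F words searched on both strands were TTTCCCGC, TTTGGCGC, TTTCGCGC, TTTGCCGC and GGCGGGAA, where the last can overlap the reverse of the first. An E2F word was in 20 of the members' 83 windows (24.1%), beside 5.58% of all 35116 windows. Among the 13 members at least 1.5-fold higher in ADARkd on the arrays labelled HepG2, 11 were matched and 4 held a word, CDC25A, CDC6, CDC7 and CDK1. By window that was 6 of 14 (42.9%), where a gene with several windows counts more than once. The window shares are thus not shares of genes. MCM2, MCM3 and MCM6, which were not 1.5-fold apart, held such a word as well. So did CDC16, CDC20B, CDC23, CDC25B, CDK10, E2F1, E2F2, E2F3, MCM8 and ORC3, and also CDK19, which was at least 1.5-fold lower. A word was thus not limited to the members that were higher.

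These windows are shown to set a pair of loading and activating genes that were higher (CDC6 at chr17:40287629-40287928, plus strand, and CDC25A at chr3:48188368-48188667, minus strand) beside a helicase gene that was not (MCM3 at chr6:52284693-52284992, minus strand). CCNE1 (chr19:29811741-29812040, plus strand) is added for its large difference. Capitals mark E2F words, and the CCNE1 window has none of these letters.
CDC6: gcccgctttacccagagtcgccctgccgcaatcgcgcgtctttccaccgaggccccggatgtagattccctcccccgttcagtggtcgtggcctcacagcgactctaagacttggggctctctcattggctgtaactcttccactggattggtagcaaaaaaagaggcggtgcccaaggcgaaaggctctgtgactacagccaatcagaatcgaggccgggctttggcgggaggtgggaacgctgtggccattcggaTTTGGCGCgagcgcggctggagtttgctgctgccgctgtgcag
CDC25A: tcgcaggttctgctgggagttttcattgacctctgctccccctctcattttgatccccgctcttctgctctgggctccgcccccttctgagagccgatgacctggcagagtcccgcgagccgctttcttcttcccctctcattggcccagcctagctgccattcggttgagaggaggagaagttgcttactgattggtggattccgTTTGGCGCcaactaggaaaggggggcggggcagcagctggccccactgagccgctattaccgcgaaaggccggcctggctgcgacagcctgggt
MCM3: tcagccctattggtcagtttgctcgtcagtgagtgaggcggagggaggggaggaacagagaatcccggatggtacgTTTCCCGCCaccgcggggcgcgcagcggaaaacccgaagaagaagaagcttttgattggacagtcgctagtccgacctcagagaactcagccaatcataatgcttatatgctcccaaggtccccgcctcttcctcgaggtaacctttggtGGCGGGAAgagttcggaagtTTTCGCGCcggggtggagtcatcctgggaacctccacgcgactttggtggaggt
CCNE1: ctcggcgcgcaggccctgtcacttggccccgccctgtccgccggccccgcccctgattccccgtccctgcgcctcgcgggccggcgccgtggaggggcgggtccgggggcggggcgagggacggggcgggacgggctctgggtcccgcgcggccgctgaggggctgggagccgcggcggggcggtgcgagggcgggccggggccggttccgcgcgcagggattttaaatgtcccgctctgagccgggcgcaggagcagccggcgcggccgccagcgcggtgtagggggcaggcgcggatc

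The word TTTGAA, the core of the element through which mitotic genes are repressed in G1, was searched on both strands too. It was in 9 of the members' 83 windows (10.8%), beside 15.2% of all windows. CCAAT, which is often found next to it, was in 41 (49.4%), beside 34.6%. The mitotic genes CDC20 (chr1:43358731-43359030, plus strand) and CDK1 (chr10:60778228-60778527, plus strand, 1 of 2 windows) are the members at least 1.5-fold higher in ADARkd that hold TTTGAA, and capitals mark it or its reverse complement. That set held it in 3 of 14 windows (21.4%), where CDK1 counts more than once. The other members that hold it are CCNB2 (0.22), CDC40 (0.13), E2F3 (0.03), CDC25C (-0.20) and CDK19 (-0.81), with differences on the arrays labelled HepG2. CDC25C and CDK19 were thus lower in ADARkd there. A match is a run of letters, not a bound site.
CDC20: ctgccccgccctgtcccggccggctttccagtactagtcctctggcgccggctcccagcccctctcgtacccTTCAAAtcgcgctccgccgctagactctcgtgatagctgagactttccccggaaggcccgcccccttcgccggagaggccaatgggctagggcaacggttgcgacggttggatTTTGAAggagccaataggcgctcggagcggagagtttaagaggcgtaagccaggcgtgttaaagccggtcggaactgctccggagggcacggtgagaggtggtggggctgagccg
CDK1: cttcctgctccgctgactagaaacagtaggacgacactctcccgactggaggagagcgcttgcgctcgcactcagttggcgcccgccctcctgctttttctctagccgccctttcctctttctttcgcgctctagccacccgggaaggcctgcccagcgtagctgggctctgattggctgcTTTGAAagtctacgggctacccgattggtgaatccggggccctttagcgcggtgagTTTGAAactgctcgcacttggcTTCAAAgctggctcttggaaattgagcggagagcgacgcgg

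Other genes of the same pathways were counted by list, and each count of genes 1.5-fold apart stands beside 12.4% of all kept genes higher and 5.73% lower on the arrays labelled HepG2. Of 13 genes around the licensed helicase, on the arrays labelled HepG2 2 were at least 1.5-fold higher in ADARkd and 1 lower, with a median of 0.03, or -0.03 after quantile normalization and -0.04 after loess. GINS3, of the GINS complex, was 7.22 in ADARkd and 6.41 in SCR (0.81), and its fellow subunit GINS4 was 5.64 in ADARkd and 6.29 in SCR (-0.65). GMNN, geminin, the inhibitor of licensing, was 8.35 in ADARkd and 7.72 in SCR (0.63). CDT1, its target, was 7.44 in ADARkd and 7.81 in SCR (-0.37).

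Of 20 genes of the replication fork, 16 were higher in ADARkd on the arrays labelled HepG2 (median 0.21), beside 60.9% of all kept genes, and 2 of them were at least 1.5-fold higher. POLE2, of DNA polymerase epsilon, differed by 0.86, and RPA2, which coats single-stranded DNA, by 0.72. After quantile normalization 13 were higher, and after loess 13. Of 19 mitotic kinases and checkpoint genes, 10 were higher and 9 lower there (median 0.02), with 6 higher after quantile normalization and 7 after loess, and BUB1, a spindle checkpoint kinase, was at least 1.5-fold higher at 0.63. The proliferation markers MKI67 and TOP2A differed by -0.05 and -0.19 there, and by -0.21 and -0.23 in K562. MKI67, TOP2A, CDT1 and RB1 were picked for mention with their values known.

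Of 11 other genes of the anaphase-promoting complex and the SCF ligase, 2 were at least 1.5-fold higher on the arrays labelled HepG2 (median -0.02, or -0.15 after quantile normalization and -0.16 after loess). These were FBXO5, an inhibitor of the anaphase-promoting complex, at 0.88, and its subunit gene ANAPC10 at 0.71. The 3 measured pocket protein and DP genes were lower in ADARkd in both lines, with TFDP2, a dimer partner of E2F, at -0.60 on the arrays labelled HepG2 and -0.22 in K562. RB1, the retinoblastoma gene, differed by -0.28 and -0.25 in the same order. Of 6 kept CDK inhibitors and 9 cyclins and partners of transcriptional CDKs, 0 were 1.5-fold apart there, with medians of 0.10 and -0.03, the first of which was -0.02 after quantile normalization and 0.07 after loess, and the second -0.18 and -0.17. In K562, 0 genes of these 7 lists were 1.5-fold apart.

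Markers of other cell types also differed between the arms of the arrays labelled HepG2. Of 13 fibroblast and stromal markers 8 were kept there, 2 at least 1.5-fold higher in ADARkd, beside 12.4% of all kept genes, and 4 lower, beside 5.73% (median -0.83), and their summed intensity was 2287 in ADARkd and 2308 in SCR. The sum of 12 lymphocyte markers, none of which was kept, was 193 in ADARkd and 166 in SCR. That of 18 hepatocyte markers was 1780 in ADARkd and 2164 in SCR, most of it CPS1, and that of 11 erythroid markers was 1698 in ADARkd and 1338 in SCR, most of it TFRC. No marker is listed at 0. Their part in the members' differences was not tested, and in bulk RNA fewer cells of a type and less RNA per cell cannot be told apart.

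The next comparison is between the lines themselves, K562 minus the arrays labelled HepG2. The D cyclins separated the lines: CCND2 and CCND3 were higher in K562 and CCND1 lower. By limma with Benjamini-Hochberg adjustment and a 2-fold bound, 9 of 60 members kept in either line were higher in K562, beside 10.3% of 8028 genes, and 4 were lower, beside 14.7%. Of these 13, 6 were kept in 1 line only, where the filter favours a difference without forcing the call (CCND1, CCND2, CDC14A, CDC14B, CDK14 and CDK18). Over the 54 members kept in both lines, 6 passed as higher, beside 5.85%, and 1 as lower, beside 8.25%. With no filter the same numbers of the 66 members passed, 9 higher, beside 6.84%, and 4 lower, beside 9.26%.

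CCND2 was higher in K562 by 4.50 ± 0.22 (SE, 2 arrays per line; limma adjusted p = 1.08e-05). CCND3 was higher by 1.27 ± 0.23 (limma adjusted p = 0.00413), or 0.98 within ADARkd and 1.55 within SCR. CCND1 was lower in K562, at -2.74 ± 0.32 (limma adjusted p = 0.000525), or -3.41 within ADARkd and -2.07 within SCR. The dim sides of CCND1 and CCND2 lay under the filter level, where background can set the value, so both sizes are uncertain. CDK6, which these cyclins activate, did not pass, at -0.05 ± 0.23.

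CCNE1 was higher in K562 by 1.52 ± 0.31 (limma adjusted p = 0.00684), 0.91 within ADARkd and 2.13 within SCR. CDC45 was higher by 1.78 ± 0.21 (limma adjusted p = 0.000553), and it alone of the licensing and firing members passed. Of the E2F family, E2F6 (1.68 ± 0.20), a repressor that works with Polycomb proteins, E2F4 (1.54 ± 0.25) and E2F8 (1.27 ± 0.26) passed as higher in K562. E2F1, E2F2 and E2F3 did not pass, at -0.21, 0.35 and -0.27. CDC14A (2.15 ± 0.23) and CDC14B (1.37 ± 0.20) were higher in K562, with dim sides under the filter level.

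The PCTAIRE kinase CDK16 was lower in K562, at -1.50 ± 0.23 (limma adjusted p = 0.00186). CDK14 (-2.24 ± 0.29) and CDK18 (-1.28 ± 0.24) also passed as lower, with dim sides under the filter level. Of the 8 MCM and 6 ORC genes 0 met both the threshold and the 2-fold bound. The MCM genes ran from -0.44 for MCM5 to 0.96 for MCM10, and the ORC genes from 0.09 for ORC6 to 0.67 for ORC2. Among CDK inhibitors, CDKN2A, named with its values known, was at 4.06 in ADARkd and 4.12 in SCR in K562, against 7.54 in ADARkd and 7.41 in SCR on the arrays labelled HepG2. The gene is known to be deleted in K562. The arms stand in for replicates here, with 1 residual degree of freedom, so p-values and errors rest on the difference between the knockdown effects of the 2 lines and on the spread assumed across genes.

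**Figure D4:**
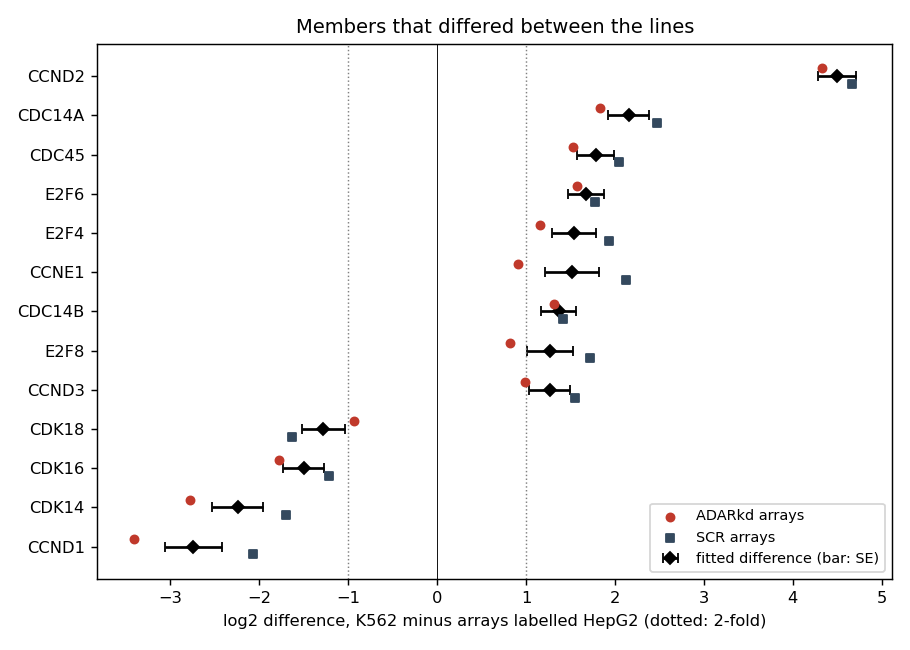
The 13 members that passed are placed by the log2 difference, K562 minus the arrays labelled HepG2, with the limma estimate and its SE (diamonds), the ADARkd arrays alone (red circles) and the SCR arrays alone (dark squares). CCND2 stands at 4.50 and CCND1 at -2.74, and the ADARkd value is inside the dotted 2-fold lines for CCNE1, E2F8, CCND3 and CDK18.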

How the data were processed

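TRIzol total RNA of each culture was biotin-labelled and hybridised to Affymetrix exon arrays, per the labels' protocols. The authors deposited 1 linear intensity per transcript cluster and array, made with RMA on build hg18 per the submitters' processing notes, with no version given. Median intensities per array were 36.1 to 37.0. Arrays have no read depth, and their number limits the precision.

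Of 17881 clusters, 14432 carry a single gene symbol, 2408 carry several and 1041 carry none. Only the first kind was named. A RefSeq table of a later assembly held 14404 of the single symbols by Entrez number, and 0 changed. A gene took its brightest cluster, and log2 was taken with no offset. Differences within a line have no test. For the shared effect and for K562 minus HepG2, limma 3.58.1 (R 4.3.3) fitted line and arm to all kept genes, with eBayes variances that follow the mean intensity. Tests were two-sided with Benjamini-Hochberg adjustment at 0.05 and 1 residual degree of freedom. The code of the fit was checked on simulated data with a large change planted alike in both lines. That check does not show what the fit can find in these data. Figures were drawn with matplotlib 3.10.9, and promoters were read with Python 3.11.15.

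Any member could be named, with all 4 values for those at least 1.5-fold apart or past the line test, and other pathway genes only by their lists, up to 4 each. The members and lists were chosen with earlier results of these data known. Alternatives were quantile and loess normalization, a filter at the 75th percentile or none, log2(value + 16), the mean of all clusters, no trend, and each arm alone.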

Additional observations from a re-analysis of the deposited data

Results flagged for a closer look

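For 8 members kept in both lines and at least 1.5-fold apart in 1 of them, the knockdown difference had opposite signs in the 2 lines. CDC20, CDC6, E2F4 and CDK19 met the same conditions, and each had the same sign in both lines. All 8 were higher in ADARkd on the arrays labelled HepG2 and lower in K562. At any size, 41.4% of all genes kept in both lines showed that pattern, and 66.7% of all genes kept in K562 were lower there. The matching share among genes at least 1.5-fold apart was not computed. The difference between the lines was not tested, since it is the only residual degree of freedom. On the arrays labelled HepG2 and then in K562, ADARkd minus SCR was 1.17 and -0.056 for CCNE1, 0.81 and -0.085 for CDC25A, 0.78 and -0.045 for CDC7, and 0.63 and -0.037 for CDK1. In the same order it was 0.65 and -0.35 for CDK17, 0.85 and -0.058 for E2F8, 0.71 and -0.20 for ORC2, and 0.63 and -0.10 for ORC5. The K562 sign of CCNE1, CDC25A, CDC7, CDK1 and E2F8 turned after quantile normalization (0.03, 0.0042, 0.05, 0.05 and 0.02), and after loess those of CDC25A (-0.0090) and E2F8 (-0.019) stayed negative. CDK17, ORC2 and ORC5 kept both signs under both, with the K562 value of ORC5 close to 0 at -0.0096 after quantile normalization and -0.020 after loess.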

How the results depend on the processing

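No paired analysis was possible because the labels number no replicates, beyond the limma fit itself, which sets the arms against each other within each line. On the arrays labelled HepG2 the members' median of 0.30 was 0.18 after quantile normalization and 0.16 after loess. The count at least 1.5-fold higher was 7 in place of 13 after either, or 12.3% in place of 22.8% of kept members. It was also 7 when only genes past the 75th percentile were kept, but of 33 members. That share was 21.2%, beside 12.6% of all genes so kept, and thus near the main result. The count at least 1.5-fold lower was 0 with that filter and 1 with log2(value + 16), in place of 2. In K562 the members' median of -0.08 was 0.00 (0.0042) after quantile normalization. The count 0.32 or more lower in K562 ADARkd was 0 after quantile normalization, loess and log2(value + 16) and 1 with the 75th percentile filter, in place of 2, and the count higher was 1 in place of 0 with no filter. The median of all K562 genes was 0.022 with no filter, in place of -0.07. Of the members lower in K562 than on the arrays labelled HepG2, 2 passed with the 75th percentile filter and 7 were 2-fold lower within ADARkd alone, in place of 4. With log2(value + 16), CDC14B (0.99) and CDK18 (-0.93) fell short of the 2-fold bound. The cause of these shifts was not tested, beyond the fewer genes that a stricter filter leaves. The shared effect had 0 genes past the threshold in every alternative run. Signal over background was not analysed here and limits every value near or under the filter level.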

Other observations

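Some neighbours of the members also differed between the lines, and they were chosen after their values were seen. RRM1, the large subunit of ribonucleotide reductase, which makes DNA precursors, was at 8.82 in ADARkd and 8.78 in SCR in K562, against 11.35 in ADARkd and 11.16 in SCR on the arrays labelled HepG2. That difference, K562 minus HepG2, was -2.45 ± 0.16 (SE, 2 arrays per line; limma adjusted p = 3.62e-05), while RRM2, the small subunit, differed by 0.45 ± 0.17 (limma adjusted p = 0.069). BUB1 was higher in K562 by 1.65 ± 0.24 and FOXM1, a transcription factor of mitotic genes, lower at -1.40 ± 0.20. CCNG2, a cyclin known to rise when cells leave the cycle, was lower in K562 at -1.60 ± 0.20, with its K562 side under the filter level.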
